A study of Mus musculus with 3 samples.

Results

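S-phase progenitor cells, here the cells with the highest expression of 7 DNA replication genes, were examined in 3 sc-RNAseq libraries of mouse colon organoids, and 834 of 4909 filtered cells belonged to them. Filtered cells had at least 5000 unique molecular identifiers (UMIs, each counting 1 captured transcript), at least 400 detected genes and at most 15% mitochondrial UMIs. In each library the 15% of cells with the highest mean expression of 8 mitotic genes were set aside first, and the S-phase cells were then chosen by their S score, as the highest 20% of the remaining cells. The S score is the mean of ln(1 + UMIs per 10000) over Mcm3, Mcm5, Mcm6, Ung, Rfc3, Pclaf and Rrm2, and the mitotic score is the same mean over Ube2c, Plk1, Nusap1, Aurka, Ccnb1, Tpx2, Prc1 and Cenpf. This gave 180 S-phase cells of 1058 in untreated organoids, 156 of 917 after 24 h of IFN-γ and 498 of 2934 after 48 h of IFN-γ. The mitotic class held 158, 137 and 440 cells, and 720, 624 and 1996 cells belonged to neither class and are called the other cells.

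The organoids were grown from colon epithelium of wild-type mice in a full medium with growth factors, so that the untreated and both IFN-γ-treated cultures shared the same medium. Cells that took up the dye DAPI were sorted out as dead before droplet capture. Each condition consists of 1 library, so the spread between cultures or animals is unknown and no test between conditions was possible. All intervals below are 95% intervals for counting error only. The summed S-phase counts were 11346646 UMIs in the untreated, 14561272 in the 24 h and 10352524 in the 48 h library, with a median of 61823, 79563 and 18843.5 UMIs per S-phase cell.

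In S phase a cell copies its genome once. Before it, the helicase made of the Mcm proteins is loaded onto origins of replication, and E2F transcription factors, released from the retinoblastoma protein by cyclin-dependent kinases, switch on the genes for the helicase, the polymerases, the supply of nucleotides and the histones that package the new DNA. In the colonic crypt the dividing cells are the stem cells at the base and the transit-amplifying progenitors above them, and organoids in growth factor medium keep such dividing cells. IFN-γ is a T cell cytokine that acts through its receptor and the kinases Jak1 and Jak2.

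Most promoters of the genes that chose the cells carry the E2F letters, and 3 of these are shown to let the reader see the letters. RefSeq promoter windows of 300 bases (250 before and 50 after the annotated start, build GRCm38.p6) were read for the gene strand and searched on both strands for TTTGGCGC, TTTCCCGC, TTTCGCGC and TTTGCCGC, which can overlap each other when read on opposite strands. Capitals mark the matches. In Mcm5 (chr8:75109259-75109558, plus strand) the run begins 153 bases before the start, in Mcm6 (chr1:128359656-128359955, minus strand) runs begin 110 and 47 bases before it, and in Rfc3 (chr5:151651159-151651458, minus strand) runs begin 10 bases before it and at the start itself. The Ube2c promoter (chr2:164769679-164769978, plus strand), from the mitotic score, is shown for contrast with its CHR letters (TTTGAA on either strand) in capitals, 29 bases before the start. One of the windows of Irf1 (chr11:53769764-53770063, plus strand) is shown for the IFN-γ response, with its GAS letters (TTCNNNGAA on either strand, the gamma-activated sequence) in capitals, 90 bases before the start.
Mcm5: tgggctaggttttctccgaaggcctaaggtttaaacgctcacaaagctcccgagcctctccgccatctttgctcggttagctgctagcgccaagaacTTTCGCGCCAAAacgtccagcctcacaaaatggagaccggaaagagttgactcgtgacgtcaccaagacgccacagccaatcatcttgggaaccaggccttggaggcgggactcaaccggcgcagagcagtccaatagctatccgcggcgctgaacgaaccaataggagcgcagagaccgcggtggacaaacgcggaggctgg
Mcm6: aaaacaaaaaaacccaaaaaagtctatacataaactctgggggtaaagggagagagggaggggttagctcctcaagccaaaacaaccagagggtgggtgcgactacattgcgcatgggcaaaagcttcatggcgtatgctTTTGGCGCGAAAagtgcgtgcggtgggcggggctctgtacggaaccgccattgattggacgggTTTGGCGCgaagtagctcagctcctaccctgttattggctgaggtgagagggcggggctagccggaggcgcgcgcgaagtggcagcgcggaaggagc
Rfc3: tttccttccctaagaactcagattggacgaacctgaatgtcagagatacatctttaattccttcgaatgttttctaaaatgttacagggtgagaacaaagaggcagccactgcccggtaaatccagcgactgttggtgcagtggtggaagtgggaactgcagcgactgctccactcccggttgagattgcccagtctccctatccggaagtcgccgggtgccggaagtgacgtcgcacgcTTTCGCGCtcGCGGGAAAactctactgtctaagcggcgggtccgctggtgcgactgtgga
Ube2c: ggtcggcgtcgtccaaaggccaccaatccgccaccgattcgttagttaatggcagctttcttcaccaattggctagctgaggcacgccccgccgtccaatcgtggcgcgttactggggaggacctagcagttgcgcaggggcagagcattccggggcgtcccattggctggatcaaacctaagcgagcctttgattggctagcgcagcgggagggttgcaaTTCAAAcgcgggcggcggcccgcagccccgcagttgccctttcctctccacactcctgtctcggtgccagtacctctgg
Irf1: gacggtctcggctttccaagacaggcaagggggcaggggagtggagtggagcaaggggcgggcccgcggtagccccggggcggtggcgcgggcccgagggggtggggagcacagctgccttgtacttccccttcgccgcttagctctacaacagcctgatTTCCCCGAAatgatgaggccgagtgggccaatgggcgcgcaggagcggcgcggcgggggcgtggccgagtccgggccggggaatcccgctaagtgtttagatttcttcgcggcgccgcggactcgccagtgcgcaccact

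The E2F letters were present in 5 of the 7 promoters of the S score (not in Rrm2 or Ung), in none of the 7 mitotic score genes with a window and in 2.26% of all 32851 windows (2.61% of the 27025 genes with a window). Among the replication genes outside the score, 11 of 33 with a window held them. The CHR letters were in 5 of 7 mitotic score genes, in 0 of 7 S score genes and in 20.2% of all genes with a window, and the GAS letters in 5 of 26 IFN-γ response genes and in 9.55% of all genes with a window. The other Irf1 window (chr11:53770223-53770522) held no GAS letters. These matches describe the letters in the windows and do not locate a bound factor.

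The genes of the S score are the Mcm2-7 helicase subunits Mcm3 (chr1:20802968-20820312), Mcm5 (chr8:75109569-75128439) and Mcm6 (chr1:128331590-128359664), the clamp loader subunit Rfc3 (chr5:151642756-151651242), the PCNA-associated factor Pclaf (chr9:65890237-65903266), the ribonucleotide reductase subunit Rrm2 (chr12:24708241-24714146) and the uracil DNA glycosylase Ung (chr5:114130386-114139323), at their GENCODE vM21 gene positions on GRCm38. Their values chose the cells and are given as a description. In the S-phase cells their summed level was 1366 CPM (the UMIs of a gene scaled to the summed UMIs of the class in that library) in the untreated, 1374 CPM in the 24 h and 1129 CPM in the 48 h library. The other cells had 390, 725 and 474 CPM, the mitotic class had 725, 756 and 614 CPM, and the barcodes under 2000 UMIs, in which free RNA and small or damaged cells were not told apart, had 727, 778 and 708 CPM. The contrast between the S-phase cells and the other cells was therefore widest in the untreated library. All 7 genes had a UMI in 141 (78.3%), 147 (94.2%) and 213 (42.8%) of the S-phase cells, in the order of the sequencing depth of these cells.

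**Figure D1:**
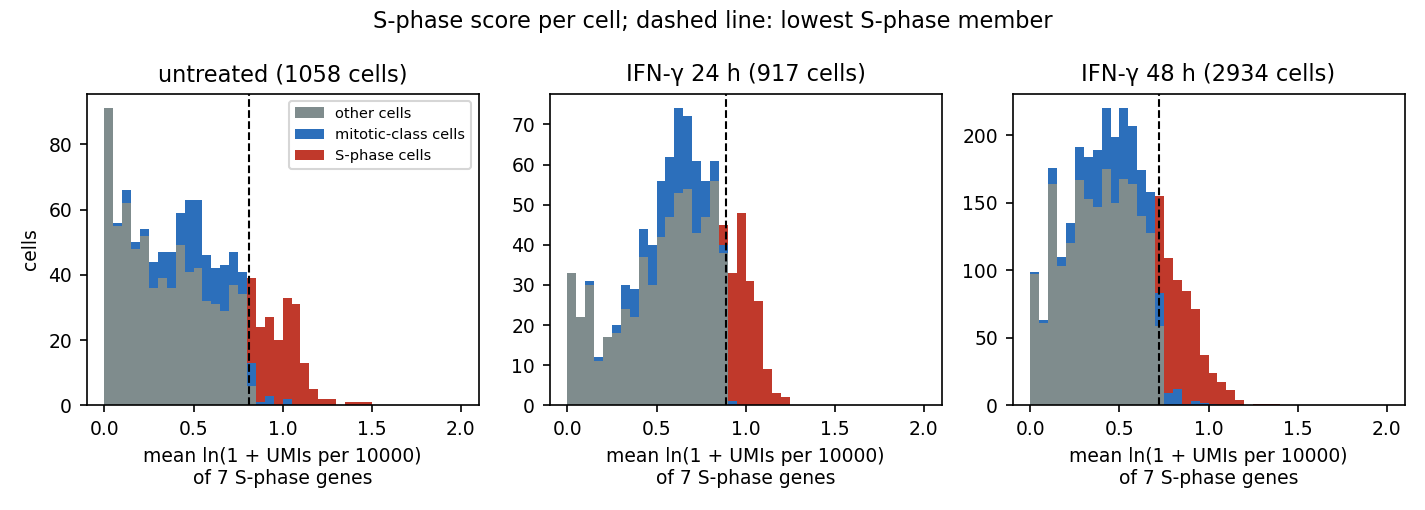
Stacked histograms of the S score (mean ln(1 + UMIs per 10000) over 7 genes, horizontal axis) against the number of cells in each library, coloured by class, with a dashed line at the lowest S-phase cell. The cut falls within a continuous range of scores, and the other cells have medians of 0.318, 0.581 and 0.395 against 0.994, 0.996 and 0.845 in the S-phase cells of the untreated, 24 h and 48 h libraries.

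The class is a range of a continuous score. The last cell taken and the first cell left out scored 0.809 and 0.808 in the untreated library, 0.889 and 0.889 at 24 h, and 0.720 and 0.720 at 48 h, and 54, 71 and 210 S-phase cells lay within 0.1 above the cut against 73, 100 and 266 other cells within 0.1 below it. The histograms of scores show the other cells nearest to the S-phase cells at 24 h. Since the number of S-phase cells is fixed by the rule, it says nothing on how many cells replicated. When every cell was thinned to 5000 UMIs and the untreated cut of 0.665 was applied to each library, 20.7% (18.1 to 23.5) of the non-mitotic cells lay above it in the untreated, 31.2% (27.9 to 34.5) in the 24 h and 17.8% (16.3 to 19.3) in the 48 h library. The part of free RNA in this order was not tested.

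The label was checked against genes outside the score. Of the 43 replication genes outside the score, 43, 41 and 43 were higher in the S-phase cells than in the other cells of their library, with median log2 ratios of 1.21, 0.65 and 0.62. Genes at least 2-fold higher numbered 30, 4 and 3 of the 43, against 2.05%, 0.333% and 0.305% of all 12726, 12317 and 12114 genes measured (1459 genes or 11.5%, 541 genes or 4.39% and 499 genes or 4.12% were at least 2-fold lower). Since the score and these genes come from the same cells and the same contrast, this is a description and no test. The epithelial marker Epcam was at 1312, 1349.9 and 1084 CPM, while 12, 13 and 13 of the 16 immune and stromal markers had no UMI in the S-phase cells and the list summed to no more than 4.35 CPM, with Cd68 as its most abundant gene. Lgr5, the stem cell receptor for R-spondin, was at 168 CPM in the untreated S-phase cells and 148 CPM in the untreated other cells, and the colonocyte marker Krt20 was at no more than 2.88 CPM in the S-phase cells of any library. The markers thus placed epithelial cells with high replication genes in the class, which was not divided into stem cells and other progenitors.

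The S-phase cells also differed from the other cells in depth and RNA content. Their median UMIs exceeded those of the other cells, which had 22754, 51944 and 8801. The share of mitochondrial UMIs was 3.19%, 1.67% and 3.45% against 6.53%, 2.53% and 7.35%. The mitotic class was deeper still, with medians of 67020.5, 97189 and 23385.5 UMIs and mitochondrial shares of 3.46%, 1.82% and 3.17%. These traits were thus not particular to the S-phase cells. Within the S-phase cells the S score and the UMIs were nearly unrelated across cells of a library, with a Spearman's rho of 0.06, -0.14 and 0.00, and over all non-mitotic cells rho was 0.24, 0.45 and 0.26. When the cells were thinned to 5000 UMIs before scoring, 75.6%, 57.1% and 62.4% of the S-phase cells were chosen again. No cell barcode was shared between the S-phase cells of different libraries.

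The replication machinery outside the score differed little between untreated and IFN-γ-treated S-phase cells. Of 43 genes, 10 were higher and 33 lower at 24 h than in untreated S-phase cells, with a median log2 ratio of -0.18, and 7 were higher and 36 lower at 48 h, with a median of -0.27. No gene at 24 h and 1 at 48 h (Rpa3) differed at least 2-fold, where 263 (2.36%) and 1007 (9.03%) of 11148 genes measured were at least 2-fold higher and lower at 24 h, and 417 (3.75%) and 643 (5.79%) of 11110 at 48 h. The median over all genes was itself -0.25 at 24 h and -0.06 at 48 h, so that relative to all genes the replication genes were higher at 24 h and lower at 48 h. Scaling by TMM, which sets most genes as unchanged, moved every log2 ratio up by 0.31 at 24 h and by 0.10 at 48 h. It turned the 24 h median of the replication genes to 0.13, with 31 genes higher and 12 lower, and left the 48 h median at -0.18. Log2 ratios at 24 h between -0.31 and 0 therefore change sign with the scaling, for lists and for single genes alike.

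Among the origin genes, the helicase subunit Mcm7 was at 324 CPM in untreated, 208 CPM in 24 h and 219.9 CPM in 48 h S-phase cells (log2 ratios -0.64 [-0.71, -0.57] and -0.56 [-0.63, -0.48]). Mcm4, another subunit, was at 152, 145 and 108 CPM, lower only at 48 h (log2 ratio -0.50 [-0.61, -0.39]). Gmnn, whose product keeps origins from being loaded again, was at 226, 187 and 142 CPM. These abundant origin genes were thus all lower at 48 h, by unequal amounts. The kinase Cdc7, which fires loaded origins, had the lowest ratios of the group, with 23.6, 13.5 and 12.5 CPM (log2 ratios -0.81 [-1.08, -0.54] and -0.92 [-1.24, -0.61]). The origin recognition subunit Orc6 (112, 119 and 75.7 CPM) and the fork protection factor Tipin (122, 127 and 77.5 CPM) were close to untreated at 24 h and lower at 48 h.

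Among the fork genes, Lig1, the ligase that joins Okazaki fragments, was at 295, 188 and 199 CPM (log2 ratios -0.65 [-0.72, -0.57] and -0.57 [-0.65, -0.49]). The sliding clamp Pcna was at 252, 204 and 168 CPM (log2 ratios -0.31 [-0.38, -0.23] and -0.58 [-0.67, -0.49]). The polymerase α subunit Pola1 was at 199, 127 and 189 CPM, low only at 24 h, while Rpa3, a subunit of the single-strand binding complex, was at 24.8, 25.7 and 10.9 CPM, low only at 48 h (log2 ratio -1.18 [-1.51, -0.86]). The fork genes thus did not share 1 time course. Pold2, a subunit of polymerase δ, had the highest ratios, with 63.2, 83.7 and 71.2 CPM (log2 ratios 0.41 [0.27, 0.54] and 0.17 [0.02, 0.32]). The flap nuclease Fen1 (72.8, 83.8 and 60.3 CPM) and the clamp loader subunit Rfc5 (65.0, 80.9 and 62.4 CPM) were higher than untreated at 24 h and not at 48 h.

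**Figure D2:**
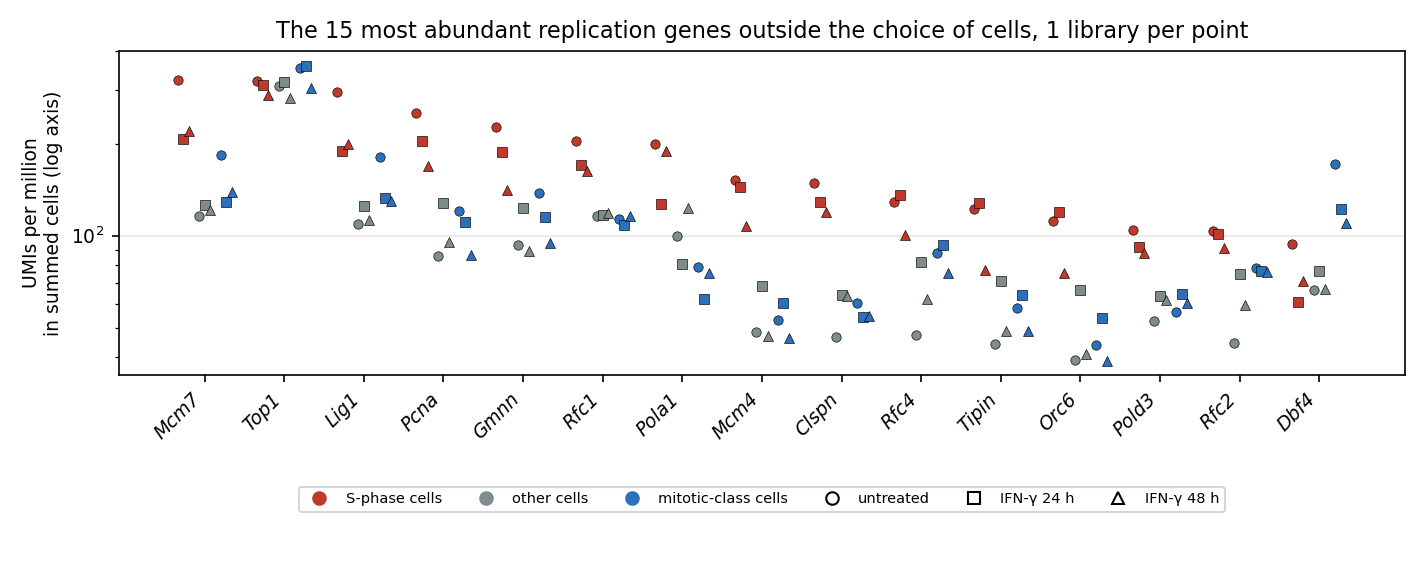
Level (CPM of the summed cells, log axis) of the 15 most abundant replication genes outside the score, 1 point per library and class (colour for the class, shape for the library). The S-phase points lie above those of the other cells for most genes, with Mcm7 at 324, 208 and 219.9 CPM in the S-phase cells, while Top1 is alike in all classes and Dbf4 is highest in the mitotic class.

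In the other cells the same 43 genes had median log2 ratios of 0.46 at 24 h and 0.25 at 48 h, and in the mitotic class -0.02 and -0.06. The other cells are what the score left over, and at 24 h they scored higher. The part of the cut in their medians was not tested. The summed level of the 43 genes was 4115, 3547 and 3234 CPM in the S-phase cells and 1887, 2388 and 2133 CPM in the other cells. The gap between the classes was thus narrower in both treated libraries.

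Chromatin copying genes were mostly lower at 48 h. Of 12 such genes, 11 were lower at each time, with median log2 ratios of -0.25 and -0.34, though with TMM scaling the 24 h median was 0.06. The exception was Nasp, a chaperone for histone H3 and H4, which was at 374, 487 and 469 CPM (log2 ratios 0.38 [0.33, 0.44] and 0.33 [0.27, 0.39]). Hells, a chromatin remodeller needed for DNA methylation, was at 284, 239 and 196 CPM, and Ezh2, the methyltransferase of H3K27, was at 235, 170.5 and 164 CPM. Slbp, which binds the stem-loop of histone mRNAs, was at 197, 179.5 and 127 CPM, with the lowest ratio of the group at 48 h (-0.64 [-0.74, -0.54]). In the other cells Slbp was at 75.3, 96.7 and 80.2 CPM.

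Nucleotide supply genes lay on both sides of untreated. Of 19 genes, 7 were higher at 24 h and 6 at 48 h, with medians of -0.16 (0.15 with TMM scaling) and -0.19. Shmt2, the mitochondrial enzyme that feeds the folate cycle, was at 62.7, 90.0 and 127 CPM (log2 ratios 0.52 [0.39, 0.65] and 1.02 [0.89, 1.16]). Paics, an enzyme of purine synthesis, was at 161, 113 and 77.8 CPM (log2 ratios -0.51 [-0.61, -0.41] and -1.05 [-1.17, -0.93]). At 48 h these were the only members past 2-fold, 1 of 19 higher and 1 of 19 lower, near the 3.75% and 5.79% of all genes. The dUTPase Dut was at 348, 369 and 243 CPM, and the pyrophosphatase Dctpp1 was at 191, 252 and 211 CPM.

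Repair and checkpoint genes were lower at 48 h in most cases. At 24 h all 20 were lower, with a median of -0.28 that became 0.03 with TMM scaling, and at 48 h 15 were lower, with a median of -0.32. Wee1, the kinase that holds back Cdk1 and Cdk2, was at 42.4, 21.5 and 30.7 CPM and had the lowest ratio of the group at 24 h (-0.98 [-1.19, -0.77]). The deubiquitinase Usp1 was at 199.6, 167 and 154 CPM. The helicase Blm (57.0, 46.8 and 70.8 CPM) and the checkpoint kinase Atr (43.5, 35.8 and 50.8 CPM) were lower at 24 h and higher at 48 h than in untreated S-phase cells. With TMM scaling both would be close to untreated at 24 h.

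With scaling to the total, the E-type cyclins, partners of Cdk2 at the entry into S phase, were the G1/S genes at least 2-fold lower. Ccne2 was so in S-phase cells at both times and Ccne1 at 48 h only. These were 1 and 2 of 20 genes, near the 9.03% and 5.79% of all genes at 24 h and 48 h. Ccne2 was at 90.8 CPM in untreated, 39.6 CPM in 24 h and 35.8 CPM in 48 h S-phase cells (log2 ratios -1.20 [-1.35, -1.05] and -1.34 [-1.52, -1.17]). Ccne1 was at 70.1, 53.7 and 33.4 CPM (log2 ratios -0.38 [-0.53, -0.24] and -1.07 [-1.25, -0.88]), and the TMM shift of 0.31 would leave its 24 h ratio close to 0. With the TMM shifts of 0.31 at 24 h and 0.10 at 48 h, only Ccne2 at 48 h would stay at least 2-fold lower. In the other cells Ccne2 was at 20.1, 16.1 and 15.6 CPM and Ccne1 was at 13.4, 22.2 and 16.8 CPM, so both remained higher in the S-phase cells of every library.

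Across the 20 genes of G1/S control the medians were -0.15 (0.15 with TMM scaling) and -0.13, with 1 and 2 genes at least 2-fold lower, near the 9.03% and 5.79% of all genes, and none at least 2-fold higher. The cyclin D1 gene Ccnd1 was at 322, 481 and 413 CPM (log2 ratios 0.58 [0.52, 0.64] and 0.36 [0.29, 0.42]), while Ccnd2 was at 722, 599 and 661 CPM. Cdk6, a kinase partner of the D-type cyclins, was at 209, 176 and 335 CPM, higher only at 48 h (log2 ratio 0.68 [0.60, 0.75]), and its fellow kinase Cdk4 was at 262, 269.8 and 232 CPM. Ccnd1 was thus above untreated, while Ccnd2 had log2 ratios of -0.27 and -0.13, of which the first was close to the median of all genes and changes sign with TMM scaling. Fbxo5, the inhibitor of the anaphase-promoting complex, was at 87.1, 110.2 and 64.1 CPM, and Ccna2, the cyclin of S and G2 phase, was at 103, 115 and 74.3 CPM.

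Inhibitors of cyclin-dependent kinases and related growth arrest genes had medians of -0.08 and -0.11 over 19 genes, with 2 and 5 genes at least 2-fold lower, against 9.03% and 5.79% of all genes, and 0 and 1 at least 2-fold higher, against 2.36% and 3.75% (with TMM scaling the 24 h median was 0.22). Cdkn1a, which encodes p21, was at 121, 166 and 134 CPM (log2 ratios 0.46 [0.37, 0.56] and 0.15 [0.04, 0.26]), and in the other cells at 192, 265 and 176 CPM. Cdkn1b, which encodes p27, was at 44.2, 26.6 and 19.2 CPM (log2 ratios -0.73 and -1.20). These inhibitors were thus on opposite sides of untreated. Btg2, an antiproliferative gene, had the lowest ratios, with 40.0, 16.8 and 13.1 CPM (-1.26 [-1.49, -1.03] and -1.61 [-1.89, -1.33]), and the stress gene Sesn2 the highest, with 7.31, 11.5 and 17.8 CPM (0.65 [0.26, 1.05] and 1.28 [0.90, 1.67]).

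Histone genes that are expressed with replication, which supply the proteins that package new DNA, were lower in the S-phase cells at 48 h, and in the other classes as well. Of the 27 measured at 24 h, 10 were higher and 17 lower, with a median log2 ratio of -0.08 (0.23 with TMM scaling) and none at least 2-fold away. At 48 h all 25 measured were lower, 18 of them at least 2-fold, against 5.79% of all genes, with a median of -1.42 and a range from -3.61 (Hist1h2ad) to -0.43 (Hist2h2bb). The list medians were 0.80 and -0.59 in the other cells and -0.61 and -1.79 in the mitotic class, so the 48 h value was lowest in the mitotic class. Their summed level in the S-phase cells was 4975, 5043 and 2247 CPM. In 48 h against 24 h S-phase cells, all 25 were lower and 20 at least 2-fold, where 122 (1.12%) of 10926 genes were at least 2-fold lower and 517 (4.73%) at least 2-fold higher. The 48 h median lay between -1.61 and -1.16 in the 14 alternatives run, while the 24 h median changed sign with 4 other choices of cells or sums besides TMM.

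The linker histone gene Hist1h1b was at 2025 CPM in untreated, 2008 CPM in 24 h and 1070.3 CPM in 48 h S-phase cells (log2 ratios -0.01 [-0.04, 0.01] and -0.92 [-0.95, -0.89]). The H4 gene Hist1h4d was at 471, 396 and 166 CPM (log2 ratio at 48 h -1.50 [-1.58, -1.42]). The H2A gene Hist1h2ae was at 228, 303 and 79.2 CPM, above untreated at 24 h (0.41 [0.34, 0.48]) and below it at 48 h (-1.52 [-1.64, -1.41]). Linker and core histones thus shared the low level at 48 h. Hist1h1b was also lower at 48 h than at 24 h outside the S-phase cells, with 372, 829 and 399 CPM in the other cells and 1396, 797 and 537 CPM in the mitotic class.

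**Figure D3:**
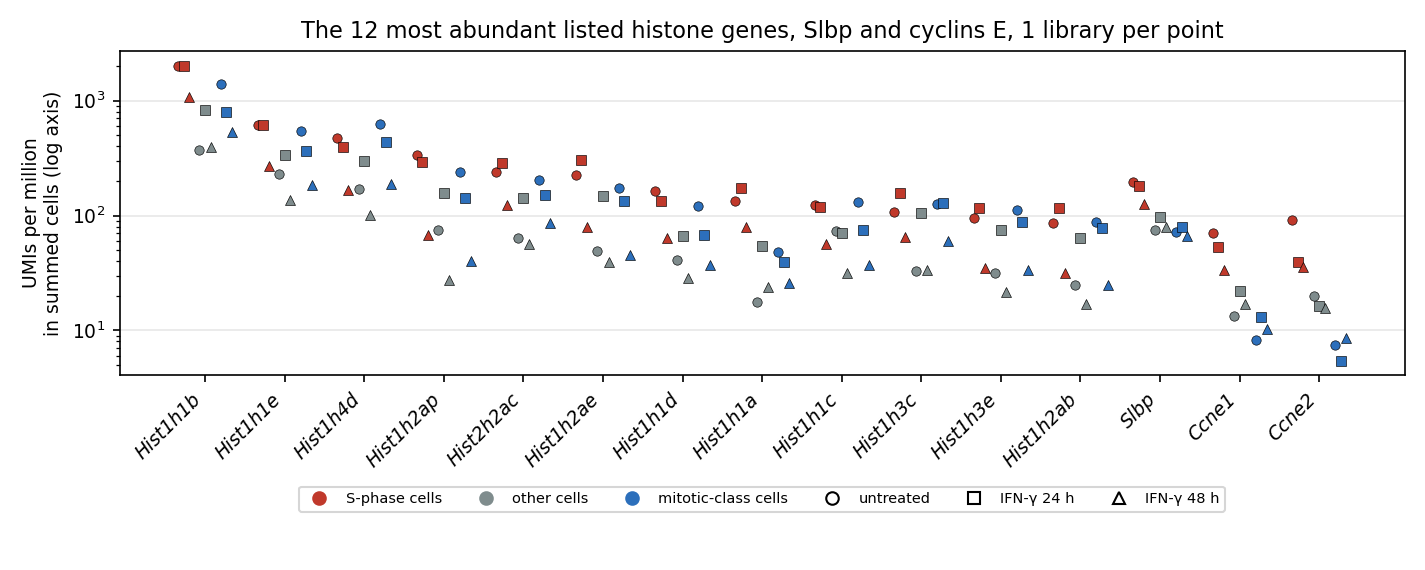
Level (CPM of the summed cells, log axis) of the 12 most abundant listed histone genes, Slbp, Ccne1 and Ccne2, 1 point per library and class (colour for the class, shape for the library). In the S-phase cells the 48 h point is the lowest for every gene shown, with Hist1h1b at 1070.3 CPM against 2025 and 2008 CPM.

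Several limits bear on the histone values. Most of these mRNAs end in a stem-loop in place of a poly(A) tail, the libraries were primed on poly(A), and the part of capture in the difference was not tested. The family has near-identical copies, so the split of UMIs between single genes is uncertain and the sum is the safer value. The barcodes under 2000 UMIs held 4433, 5113 and 2597 CPM of these genes, with the 48 h library lowest there too, and the S-phase cells at 48 h had the lowest depth per cell.

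Mitotic genes outside the mitotic score, which had no part in either score, had medians of -0.32 (-0.02 with TMM scaling) and -0.22 over 20 genes in the S-phase cells. Top2a, the topoisomerase that untangles chromosomes, was at 621, 565 and 649 CPM and the proliferation marker Mki67 at 387, 299 and 347 CPM. The spindle checkpoint kinase Ttk was at 35.6, 17.6 and 24.4 CPM (log2 ratio at 24 h -1.02 [-1.25, -0.79]), and the chromosomal passenger kinase Aurkb was at 52.5, 40.7 and 26.3 CPM. The list summed to 2559, 2255 and 2341 CPM in the S-phase cells and 5516, 4661 and 3985 CPM in the mitotic class. The other cells had 1716, 2606 and 2109 CPM, more than the S-phase cells at 24 h only. Of the 20 genes, 18, 1 and 13 were higher in the S-phase cells than in the other cells of their library.

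All 34 genes of the response list were at least 2-fold higher in S-phase cells at both times, where 2.36% and 3.75% of all genes were, with median log2 ratios of 6.21 and 5.94 (6 genes without an untreated UMI entered at a lower bound set by a floor of 3 counts over the group). The medians were 6.02 and 6.08 in the other cells and 6.10 and 6.25 in the mitotic class. The summed level of the list was 985, 11180 and 13726 CPM in the S-phase cells.

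Irf1, the transcription factor whose promoter is printed above, was at 22.8 CPM in untreated, 371 CPM in 24 h and 310.5 CPM in 48 h S-phase cells (log2 ratios 4.02 [3.84, 4.21] and 3.77 [3.58, 3.95]). Its ratio in the S-phase cells exceeded that in the other cells by 0.28 ± 0.21 (half-width of the counting interval) at 24 h and by 0.06 ± 0.22 at 48 h. These differences were small beside the ratios, and only the interval at 24 h did not reach 0.

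Among the effectors, Cd74, the invariant chain of MHC class II, was at 0.441, 1129 and 2191 CPM, with 5 UMIs in all untreated S-phase cells (log2 ratios 11.32 [10.10, 12.95] and 12.28 [11.06, 13.90]). The GTPase Iigp1 rested on 1 untreated UMI, with 0.0881, 1202 and 1062 CPM (log2 ratio at 24 h 13.74 [11.26, 19.04]). Gbp2 had no untreated UMI and was at 542 and 617 CPM, at least 11.00 and 11.19 on the log2 scale above the floor, with near-identical Gbp copies that make its share of the family uncertain. The MHC class I genes H2-K1 (255, 614 and 929 CPM, log2 ratios 1.27 and 1.86) and H2-D1 (214, 548 and 558 CPM, 1.36 and 1.38) had the lowest ratios of the list at 24 h and 48 h. These class I genes were thus present before treatment, while Cd74, Iigp1 and Gbp2 were near 0 in untreated S-phase cells.

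Cd74 was found in 2.22% (0.61 to 5.59) of the untreated S-phase cells and in all S-phase cells at 24 h and 48 h. After thinning to 5000 UMIs the shares were 0%, 96.8% and 100%. In the treated libraries the barcodes under 2000 UMIs held 905 and 1855 CPM of Cd74, close to the S-phase cells, and the part of free RNA in the share of cells was not tested.

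**Figure D4:**
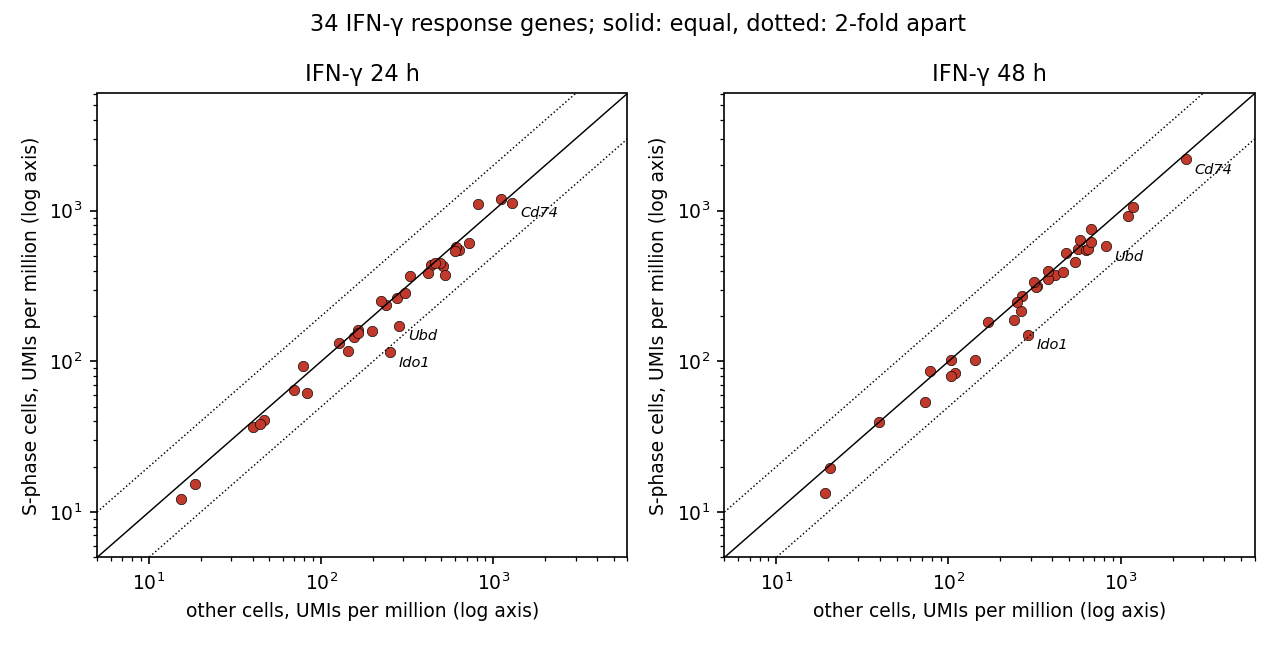
Level (CPM, log axes) of each of the 34 IFN-γ response genes in the S-phase cells (vertical) against the other cells (horizontal) at 24 h and 48 h, 1 point per gene, with a solid line of equal levels and dotted lines 2-fold apart. Most genes lie close to the solid line, and Ido1 lies farthest below it, with 115 and 151 CPM in the S-phase cells against 251 and 289 CPM in the other cells.

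Between the classes, the response genes had a median log2 ratio of S-phase over other cells of -0.12 at 24 h and -0.12 at 48 h. Over all genes the same medians were -0.10 and -0.13. Of the 34 response genes, 7 were higher and 27 lower at 24 h, and 9 higher and 25 lower at 48 h. Ido1, which degrades tryptophan, was at 115 and 151 CPM in the S-phase cells and 251 and 289 CPM in the other cells, and had no UMI in either untreated class. Ubd, a ubiquitin-like modifier, was at 172 and 582 CPM in the S-phase cells and 285 and 819 CPM in the other cells. The chemokine gene Cxcl10 was at 1114 and 754 CPM in the S-phase cells and 809 and 674 CPM in the other cells. Both Ido1 and Ubd were thus lower and Cxcl10 higher in the S-phase cells, and the barcodes under 2000 UMIs held 140.1 and 126 CPM of Ido1.

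Interferon-linked genes that act on nucleotides and nucleic acids were higher as well, with medians of 2.70 and 2.73 over 16 genes and 12 and 13 of them at least 2-fold higher, against 2.36% and 3.75% of all genes. Samhd1, which degrades the dNTPs that DNA polymerases use, was at 19.4, 82.5 and 86.2 CPM in the S-phase cells (log2 ratios 2.09 [1.88, 2.30] and 2.15 [1.94, 2.37]). Its ratio was lower than in the other cells (14.7, 103 and 116 CPM), with differences of -0.72 ± 0.25 and -0.83 ± 0.26. The sensor Zbp1 had the highest ratios, with 0.353, 65.4 and 76.0 CPM. Slfn9 was the one gene of the group below untreated at both times (with TMM scaling at 48 h only), with 103, 88.9 and 71.7 CPM (log2 ratios -0.21 [-0.32, -0.09] and -0.52 [-0.65, -0.39]), and it was the most abundant of the 16 in untreated S-phase cells.

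Of the 8 genes of the receptor and its signalling, 4 were higher and 4 lower at each time, with medians of -0.04 and -0.07, and the receptor chains were among the lower ones. Ifngr1 was at 116, 62.2 and 67.4 CPM (log2 ratios -0.90 [-1.02, -0.78] and -0.78 [-0.92, -0.65]) and Ifngr2 at 60.3, 30.5 and 24.2 CPM (-0.98 [-1.16, -0.81] and -1.31 [-1.53, -1.10]). Jak1 was at 88.6, 70.9 and 79.1 CPM, and Jak2 was at 28.4, 28.8 and 46.5 CPM, higher only at 48 h (0.71 [0.50, 0.92]). The receptor chains were lower in the other classes too, with Ifngr1 at 167, 80.0 and 94.1 CPM in the other cells and 139, 73.6 and 68.7 CPM in the mitotic class. The feedback inhibitor Socs1 of the response list was at 1.15, 93.4 and 39.8 CPM.

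Stem cell genes were lower at 24 h and nearer to untreated at 48 h. Of the 14 measured, all were lower at 24 h (12 with TMM scaling), 8 of them at least 2-fold against 9.03% of all genes, with a median of -1.11. At 48 h 4 were higher and 10 lower, 1 of them at least 2-fold, near the 5.79% of all genes. The 48 h median was -0.44. It became -0.66 with cells thinned to 5000 UMIs and -0.74 with the untreated cut applied to thinned cells. Lgr5 was at 168 CPM in untreated, 59.0 CPM in 24 h and 90.8 CPM in 48 h S-phase cells (log2 ratios -1.51 [-1.63, -1.39] and -0.89). Smoc2, a matrix protein of crypt base cells, was at 59.8, 19.9 and 40.4 CPM (-1.59 [-1.79, -1.39] and -0.57 [-0.75, -0.39]). The transcription factor Sox9 was at 80.9, 31.7 and 28.6 CPM, low at both times (-1.35 [-1.51, -1.19] and -1.50 [-1.69, -1.31]). The Wnt feedback ligases parted at 48 h, where Znrf3 (103, 80.0 and 172 CPM) was above untreated and Rnf43 (170.4, 84.0 and 182 CPM) was close to it. Ascl2, a transcription factor of stem cells, was at 50.2, 46.1 and 43.9 CPM and differed least of the list at 24 h.

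Lgr5 in the other cells was at 148, 54.4 and 91.3 CPM, and its ratios differed between the classes by -0.07 ± 0.14 at 24 h and -0.19 ± 0.13 at 48 h. Summed over the list, stem genes were at 1731, 893 and 1438 CPM in the S-phase cells and 1818, 942 and 1545 CPM in the other cells. The lower stem gene level was thus found in both classes. A list of stress and nuclear RNAs was also lowest at 24 h in the S-phase cells, at 4819, 2147 and 3441 CPM. The share of mitochondrial UMIs was lowest there too, at 3.19%, 1.67% and 3.45%. The part of RNA quality in the stem gene levels was not tested.

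Markers of differentiated cells were lower in S-phase cells than in the other cells of every library. Colonocyte genes summed to 1176, 1021 and 985 CPM, against 4830, 1681 and 1693 CPM in the other cells. Secretory genes summed to 1127, 611 and 506 CPM, against 4439, 1446 and 953 CPM. The mitotic class had 1813, 1165 and 998 CPM of colonocyte genes and 2101, 586 and 592 CPM of secretory genes. In the treated libraries it was thus close to the S-phase cells. In the S-phase cells Cyp2c55, a cytochrome P450 of colonocytes, was at 45.5, 0.618 and 0.0966 CPM (log2 ratios -6.20 [-7.34, -5.27] and -8.88 [-14.19, -6.39]). Its 48 h level rests on so few UMIs that the size of that ratio is uncertain. The colonocyte gene Lypd8 was at 454, 605 and 524 CPM and was the most abundant of its list. The goblet cell genes Agr2 (606, 342 and 269.7 CPM) and Spink4 (114, 44.0 and 7.05 CPM) were lower at both times, while Pou2f3, the tuft cell factor, was at 2.20, 6.39 and 4.73 CPM (log2 ratios 1.54 [0.89, 2.23] and 1.10 [0.38, 1.86]). The part of free RNA from differentiated cells in these low levels was not tested.

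Genes of the regenerative epithelium lay on both sides of untreated. Ly6a, also known as Sca-1, was at 1071, 3273 and 3606 CPM (log2 ratios 1.61 [1.58, 1.64] and 1.75 [1.72, 1.78]), and in the other cells at 829.7, 3541 and 3837 CPM. The YAP target Ccn2 was at 15.4, 1.44 and 2.51 CPM and the secreted chaperone Clu had log2 ratios of -2.80 and -2.90. The list had medians of -0.86 and -0.80 (-0.55 and -0.70 with TMM scaling). Of the 10 genes measured, 2 were higher and 8 lower at each time, and 3 were higher at 24 h with TMM scaling. In the BMP list, Id1 was at 406, 431 and 220.2 CPM and Id3 at 116, 161 and 83.7 CPM, with list medians of -0.75 and -0.88, and in the list of stress and nuclear RNAs the immediate early gene Fos was at 245, 99.7 and 34.5 CPM, with list medians of -0.65 and -0.34. Among epithelial genes Krt19 was at 1624, 722 and 622 CPM (log2 ratios -1.17 and -1.38), with list medians of -0.43 and -0.58.

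**Figure D5:**
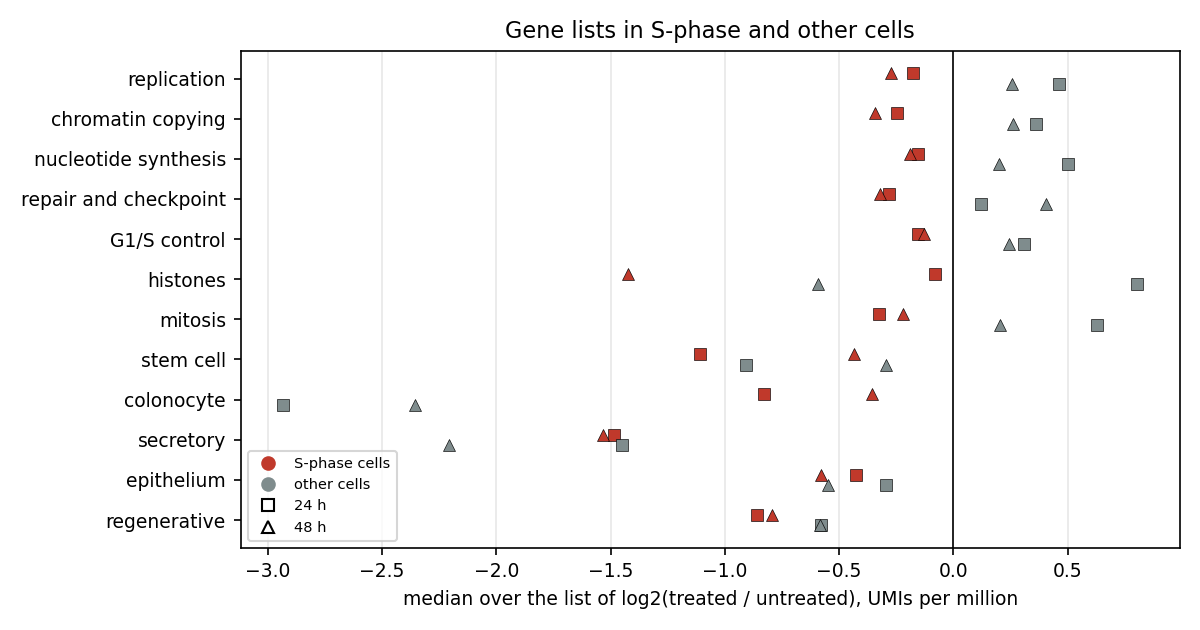
Median log2 ratio to untreated (horizontal axis) of 12 gene lists in the S-phase cells (red) and the other cells (grey) at 24 h (squares) and 48 h (triangles), scaled to the total. The replication list lies at -0.18 and -0.27 in the S-phase cells against 0.46 and 0.25 in the other cells, and the histone list lies at -1.42 in the S-phase cells at 48 h.

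Above a mean level of 50 CPM, the 10 genes with the highest ratios in the treated S-phase cells were Iigp1, Cd74, Gbp2, Igtp, Cxcl9, H2-Eb1, Gbp6, Gbp3, Ubd and Gm4951, all of them at 5 or fewer untreated UMIs. The 10 with the lowest ratios were Gstm1, Cdh13, Ier3, Hes1, mt-Atp8, Gsta4, Car1, Spink4, Ahnak and Car2. The glutathione transferases Gstm1 (110.3, 23.9 and 16.4 CPM) and Gsta4 (180.0, 61.4 and 20.2 CPM), the Notch target Hes1 (142, 39.8 and 29.8 CPM) and the carbonic anhydrase Car2 (1249, 491 and 335 CPM) were lower in the other cells as well. Ier3, an immediate early gene, was at 231, 62.1 and 60.6 CPM in the S-phase cells and 167, 100.2 and 84.0 CPM in the other cells, and its ratio was lower in the S-phase cells, with differences of -1.15 ± 0.12 and -0.94 ± 0.15.

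Outside the score and above a mean of 25 CPM in the S-phase cells, the 15 genes highest in the S-phase cells over the other cells, averaged over the libraries, were Hist1h1a, Hist1h1b, Ccne2, Ccne1, Hist1h2an, Hist1h2ap, Hist1h2ae, Fbxo5, Hist1h1d, Hist1h2ak, Hist2h2ac, Cdc6, E2f8, Uhrf1 and Hist1h3i. Cdc6, which loads the Mcm helicase, was at 49.8, 40.0 and 40.3 CPM in the S-phase cells and 13.9, 17.9 and 19.5 CPM in the other cells. Uhrf1, which brings Dnmt1 to newly copied DNA, was at 177, 149 and 159 CPM against 47.4, 72.6 and 78.0 CPM. Both were higher in the S-phase cells of each library, with the widest ratio in the untreated one.

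The genes whose ratio to untreated was most above that of the other cells were Car1, Gbp5, Gbp7, Selenbp1 and Gm26917. Car1, a colonocyte carbonic anhydrase, was at 135, 51.0 and 28.6 CPM in the S-phase cells and 1592, 129 and 80.0 CPM in the other cells, and Selenbp1, a selenium-binding protein gene, was at 61.9, 86.7 and 40.9 CPM against 318, 175 and 84.2 CPM. Both started from a lower untreated level in the S-phase cells. The genes most below were H2-Ab1, Ido1, Cxcl9, Gbp2 and H2-DMb1, which had 0 to 4 untreated UMIs in each class, so that no difference between the classes in their ratios to untreated can be read.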

How the data were processed

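The sc-RNAseq libraries of 1 untreated and 2 IFN-γ-treated organoid cultures were made by the authors with 3′ v3 droplet chemistry. Reads were mapped to mm10 with Cell Ranger 6.0.1 (submitters' processing notes), and the deposited values are UMI counts per gene and barcode without normalization. The annotation release is not given in the sources used here. The matrices held 20841, 17227 and 22478 barcodes.

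Cells were filtered and scored as stated in the results, UMIs were summed over the cells of a class within a library and scaled to CPM, and genes with at least 50 counts over the 2 groups compared were measured. Ratios carry exact conditional binomial intervals, shares exact Clopper-Pearson intervals, both at 95% and for counting error only, and differences of log2 ratios a half-width from the 4 counts. With 1 library per condition nothing was tested, and "at least 2-fold" is a size and not a call of significance. A gene without an untreated count was set against a floor of 3 counts. No doublet caller was run, and an alternative left out the deepest 5% of cells. Methods were checked on simulated counts. Tools were Python 3.11.15, numpy 2.4.6, scipy 1.17.1, pandas 2.3.3, matplotlib 3.10.9, R 4.3.3 and edgeR 4.0.16 (TMM only).

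The members, gene lists and comparisons were chosen with earlier results of these data known. Genes are named as members of the score, as the most abundant, highest, lowest or sign-changing genes of a list, as the 10 highest and 10 lowest ratios, as the 15 genes highest in S-phase cells, and as the 5 genes each way whose ratios differ most from the other cells. Other list genes (Epcam, Irf1, Cd74, Gbp2, Ido1, Ubd, Cxcl10, Socs1, Samhd1, Lgr5, Cdkn1b) were chosen after their values were seen. The result for 1 member of the IFN-γ response list is not reported here.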

Additional observations from a re-analysis of the deposited data

Results flagged for a closer look

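For 6 gene lists the median log2 ratio to untreated was below 0 in the S-phase cells and above 0 in the other cells at both times, and the difference between the classes was not tested. The classes come from the same libraries and were split by a score of replication genes, and the part of the split in these medians was not tested. At 24 h the median over all genes in the S-phase cells was -0.25, and with TMM scaling the 24 h medians of the S-phase cells were 0.13 for replication, 0.06 for chromatin copying, 0.15 for nucleotide supply, 0.03 for repair, 0.15 for G1/S control and -0.02 for mitotic genes. For the 43 replication genes the medians were -0.18 at 24 h and -0.27 at 48 h in the S-phase cells and 0.46 and 0.25 in the other cells. Genes of chromatin copying had -0.25 and -0.34 against 0.36 and 0.26, and genes of nucleotide supply had -0.16 and -0.19 against 0.50 and 0.20. Repair and checkpoint genes had -0.28 and -0.32 against 0.12 and 0.40. Genes of G1/S control had -0.15 and -0.13 against 0.31 and 0.24, and mitotic genes outside the mitotic score had -0.32 and -0.22 against 0.63 and 0.20.

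In barcodes of at least 2000 but under 5000 UMIs, which entered no class, Cd74 was at 719 CPM over 249 barcodes at 24 h and at 1974 CPM over 5109 barcodes at 48 h, above the 0.678 CPM (3 UMIs) over 1902 barcodes of the untreated library.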

How the results depend on the processing

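The 14 alternatives were run for the genes at least 2-fold higher and lower and for the medians of 7 lists (replication, IFN-γ response, stem, colonocyte, secretory, CDK inhibitor and histone) at each time. The other lists, the contrasts between classes, the shares and single genes were not run under them, except that TMM was applied to every list. S-phase cells at 48 h were the shallowest, and no library could be left out because each condition has 1. The 263 genes at least 2-fold higher at 24 h became 130 with cells thinned to 5000 UMIs, 156 with 1 cut on thinned cells, 410 with TMM, 476 with at least 10 counts per gene and 163 with at least 200. The 1007 lower genes became 455, 456, 558, 2127 and 475 under the same settings. At 48 h the 417 higher genes became 232 (thinned), 213 (1 cut), 798 (10 counts) and 239 (200 counts), and the 643 lower genes became 375, 359, 1412 and 333. Fewer UMIs leave fewer genes over the count minimum. The replication median at 24 h turned to 0.13 with TMM and was -0.07 with a minimum of 2000 UMIs, -0.27 (thinned) and -0.28 (1 cut), and at 48 h it was -0.45 with thinned cells. The IFN-γ response median was 5.004 (thinned), 4.71 (1 cut) and 5.64 (mean over cells) at 24 h, and 4.64 (thinned), 4.68 (1 cut) and 6.42 (highest 10% by score) at 48 h, where untreated genes at 0 are set to a floor of fixed counts. The CDK inhibitor median at 24 h turned to 0.22 with TMM and was -0.72 with the highest 10% by score and -0.34 with the mean over cells, and at 48 h it lay between -0.15 and 0.07. The histone median at 24 h turned to 0.18 with a minimum of 2000 UMIs, 0.28 (thinned), 0.21 (1 cut), 0.23 (TMM) and 0.18 (mean over cells), and at 48 h it stayed between -1.61 and -1.16. Over the alternatives the stem median lay between -1.26 and -0.80 at 24 h and between -0.74 (1 cut) and -0.34 (TMM) at 48 h, the colonocyte median between -0.997 and -0.44 at 24 h and between -1.08 (1 cut) and -0.12 (10 counts) at 48 h, and the secretory median between -1.47 and -0.11 (thinned) at 24 h and between -1.94 and -0.79 (10000 UMIs) at 48 h, all below 0. Except where a value or the setting's own construction is named here, the cause was not tested. No paired analysis was possible because each condition has 1 library.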
